A study of Mus musculus with 18 samples.

Results

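Neurexins, neuroligins and the leucine-rich repeat transmembrane proteins of the Lrrtm family are cell adhesion proteins of the synapse, and 9 of their genes were followed here: Nrxn2, Nrxn3, Nlgn1, Nlgn2, Nlgn3, Lrrtm1, Lrrtm2, Lrrtm3 and Lrrtm4. They were taken by name from a table of 57180 gene identifiers, and all 9 passed the filter on low counts, which left 16738 genes for testing. The RNA came from the hippocampus of wild-type adolescent male C57BL/6J mice, with 1 library from each of 18 mice and 6 mice in each of 3 groups. The trained group (CSDS plus exercise) went through chronic social defeat stress, in which a mouse is placed with an aggressive resident, and did aerobic training that began 1 week before the defeat and lasted through it. The CSDS group went through the same defeat without training. The control group was not treated. No unstressed trained group was analysed here, so training was measured in defeated mice only, and the labels give all libraries the same batch. Whole hippocampus was used, so fewer cells of a type and less RNA per cell cannot be told apart in any value below.

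Neurexins sit in the presynaptic membrane and bind, across the cleft, to neuroligins and to Lrrtm proteins in the postsynaptic membrane. Nlgn1 is found mainly at excitatory synapses, Nlgn2 mainly at inhibitory ones and Nlgn3 at both, while Lrrtm proteins are linked to excitatory synapses and their glutamate receptors. In the hippocampus these complexes are known for organising new synapses and for setting how strongly existing ones transmit.

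The genes differ widely in base composition. The median share of G and C over a gene's transcripts was 61.8% for Nrxn2, 59.9% for Nlgn2, 56.1% for Lrrtm1, 51.1% for Nrxn3, 50.8% for Nlgn3, 49.7% for Lrrtm3, 44.8% for Lrrtm4, 41.1% for Nlgn1 and 40.6% for Lrrtm2. Related genes therefore stood far apart: the neurexin pair and the neuroligins each held a gene near 60% and another near or below 51.1%. Within the coding sequence the neuroligins differed most at the last base of the codon, where G or C made up 73.7% in Nlgn2, 63.1% in Nlgn3 and 43.5% in Nlgn1. The ends of the coding sequences show this in letters. Below are the last 60 coding bases before the stop codon, which encode the tail that binds scaffold proteins inside the cell, from GENCODE M21 transcripts (GRCm38), 5′ to 3′ on the coding strand, with capitals for G or C at the last base of a codon.
Nlgn1: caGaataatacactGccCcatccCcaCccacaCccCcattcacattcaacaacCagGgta
Nlgn2: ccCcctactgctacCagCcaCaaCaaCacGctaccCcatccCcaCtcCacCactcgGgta
Nlgn3: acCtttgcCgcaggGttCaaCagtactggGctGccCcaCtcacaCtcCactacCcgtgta
Nrxn2: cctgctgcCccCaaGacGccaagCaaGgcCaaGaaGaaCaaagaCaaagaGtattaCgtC
Nrxn3: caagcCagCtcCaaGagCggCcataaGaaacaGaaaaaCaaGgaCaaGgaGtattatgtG

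Of the 20 codon ends in these stretches, G or C stood at 9 in Nlgn1, 13 in Nlgn2 and 12 in Nlgn3. Position by position, Nlgn2 and Nlgn3 shared 35 of the 60 bases, Nlgn1 and Nlgn2 shared 33, and Nlgn1 and Nlgn3 shared 28. The 2 neurexin stretches shared 37 bases and had G or C at 14 codon ends each, although their whole coding sequences differed there, with 77.0% in Nrxn2 and 63.0% in Nrxn3.

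In GRCm38, Nrxn2 (ENSMUSG00000033768) lies at chr19:6418731-6544169 on the plus strand and Nrxn3 (ENSMUSG00000066392) at chr12:88722876-90334935 on the plus strand. Nlgn1 (ENSMUSG00000063887) lies at chr3:25426215-26332460 on the minus strand, Nlgn2 (ENSMUSG00000051790) at chr11:69823122-69837784 on the minus strand and Nlgn3 (ENSMUSG00000031302) at chrX:101299168-101325963 on the plus strand. Lrrtm1 (ENSMUSG00000060780) lies at chr6:77242689-77257791 on the plus strand, Lrrtm3 (ENSMUSG00000042846) at chr10:63928472-64090277 on the minus strand and Lrrtm4 (ENSMUSG00000052581) at chr6:80018877-80810143 on the plus strand. Lrrtm1, Lrrtm2 and Lrrtm3 lie inside the alpha-catenin genes Ctnna2, Ctnna1 and Ctnna3, on the opposite strand. Their exons overlapped those of the host by 0 bases in Lrrtm1 and Lrrtm3 and by 95 bases in Lrrtm2, which is 1.58% of its exon length. The Nlgn3 value is the least certain, because 3823 bases, or 41.2% of its exon length, are shared with the same-strand predicted transcript Gm21986, which was assigned 0 to 80 counts per library. Antisense transcripts overlap 25.1% of Lrrtm4 (Gm4409, at most 18 counts) and 9.16% of Nlgn1 (A830092H15Rik, 1 to 65 counts), and whether the counting used strand is not given in the sources used here.

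Scaled to exon length, Nlgn2 had the highest level of the 9 genes and Nlgn1 the lowest. Over all 18 mice the mean level was 62.4 CPM (counts scaled to library size) per kb of exon for Nlgn2, with a range of 48.1 to 83.1. Per kb of all exons, every library held more Nlgn2 than any library held of another member. Next came Lrrtm1 at 30.7 (12.7 to 39.1) and Nrxn2 at 27.6 (19.8 to 41.2), then Nlgn3 at 17.97 (13.02 to 23.1) and Nrxn3 at 12.7 (10.9 to 15.8). A lower set followed, with Lrrtm2 at 7.03 (4.86 to 12.5), Lrrtm4 at 6.56 (5.23 to 8.26), Lrrtm3 at 4.58 (3.08 to 10.9) and Nlgn1 at 4.24 (3.28 to 6.34). Apart from Nlgn2, each gene's range overlapped that of its neighbour in this order. The median over all tested genes was 3.89 CPM per kb. With the longest transcript in place of all exons, Nlgn2 had 64.9 (49.9 to 86.3) and Nrxn2 57.1 (41.0 to 85.4), so that their ranges overlapped and Nrxn2 moved above Lrrtm1. Nrxn3 at 20.2 then moved above Nlgn3, and Lrrtm4 at 9.09 above Lrrtm2 at 7.47.

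**Figure D1:**
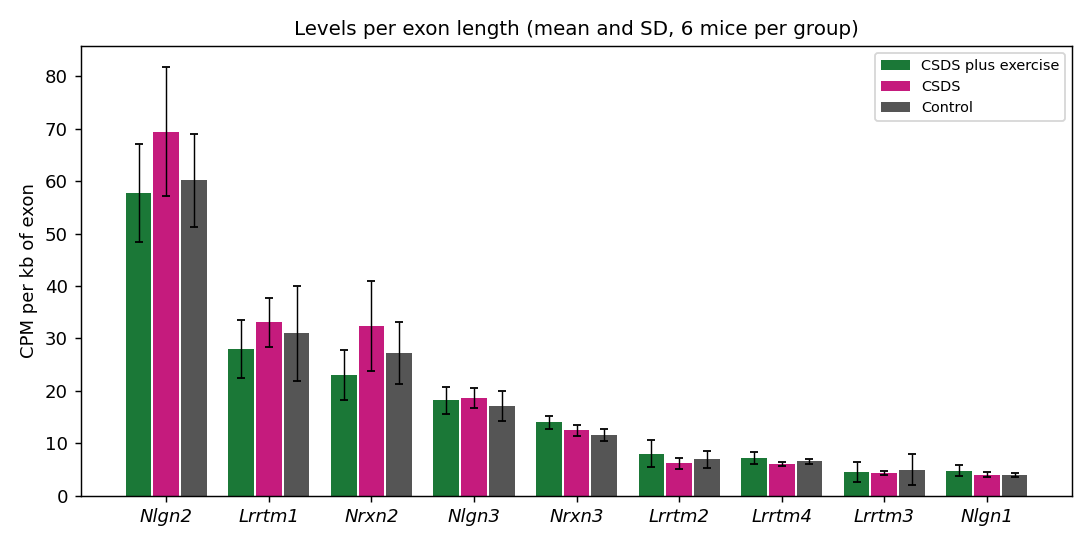
Mean level of each gene in CPM per kb of exon (vertical axis) in trained defeated, defeated and control mice, with bars for the mean and lines for the SD over 6 mice per group. Nlgn2 stands above all others at 62.4 over all mice, and Lrrtm2, Lrrtm4, Lrrtm3 and Nlgn1 lie at 7.03 or less.

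Library totals lay between 18911080 and 24136591 counts. Among the marker lists, control replicate 2 stood apart: the mean over 12 dentate granule cell markers was 2.16 log2 CPM there and at least 4.90 in the other 17 libraries, and the mean over 12 neocortical markers was 5.88 there and at most 4.85 elsewhere. This library was lowest in the markers of hippocampal pyramidal cells too. The mean was 4.22 for CA1, against at least 5.21 elsewhere, and 4.21 for CA2 and CA3, against at least 5.25. Trained replicate 4 had the highest mean over the dentate markers, 5.89 log2 CPM, against at most 5.51 elsewhere. Its mean over 12 GABAergic interneuron markers was the lowest, 4.76 against at least 4.98. The mean over 11 thalamic markers was high in 4 libraries, at 5.27 and 6.47 log2 CPM in trained replicates 3 and 6 and at 5.15 and 6.01 in control replicates 1 and 3, and at most 3.68 in the others, which include every CSDS mouse. The dentate marker Dsp was at 0 in control replicate 2, and the thalamic marker Gbx2 was at 0 in 10 libraries. The summed level of the choroid plexus markers ran from 65.1 to 6686 CPM in trained mice, 98.8 to 8602 CPM in CSDS mice and 19.8 to 5555 CPM in controls. Libraries also differed in how expression leaned towards GC-rich transcripts. This lean is given below as the GC slope, the log2 change in a library's expression for each 10 percentage points of transcript GC content, fitted with the 9 genes left out. It ran from -0.44 to 0.19 in trained mice, from -0.15 to 0.28 in CSDS mice and from -0.09 to 0.31 in controls, with medians of -0.19, 0.19 and 0.02.

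None of the 9 genes was called in any comparison by edgeR's quasi-likelihood test at an adjusted p under 0.05 (Benjamini-Hochberg, every tested gene counted). In trained against CSDS mice, 0 of 16738 genes were called (0% of those tested). At an unadjusted p under 0.05, 3 of the 9 genes passed, Nrxn3 and Lrrtm4 higher and Nrxn2 lower, beside 15.6% of all genes (8.10% higher and 7.46% lower). In trained against control mice, 3 genes were called (0.0179%), none of them among the 9: Plekhf1, Gm42664 and Gm48415, named after their values were seen. Nrxn3 and Nlgn1 passed the unadjusted p, both higher, beside 11.2% of all genes (6.80% higher and 4.39% lower). In CSDS against control mice, 0 genes were called (0%), 588 genes (3.51%, with 1.83% higher and 1.68% lower) passed the unadjusted p, and none of the 9 was among them. The comparisons share the libraries of a group, so their values are not independent of each other.

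The other tools differed from edgeR in how many genes they called. In trained against CSDS mice DESeq2 called 144 genes (0.461%) and none of the 9. In the same comparison limma voom with quality weights called 5567 genes, 33.3% of all tested, and 6 of the 9: Nlgn1, Lrrtm2 and Lrrtm4 higher, and Nrxn2, Nlgn2 and Lrrtm1 lower. In trained against control mice DESeq2 called 111 genes (0.355%) and voom 183 (1.09%), and in CSDS against control mice DESeq2 called 1 gene (0.00320%) and voom 0 (0%). None of the 9 was among these called genes. At an unadjusted p under 0.05 voom had 3269 of 16738 genes in CSDS against control mice, where edgeR had 588. Among the 3269 were 4 of the 9, with Nrxn2, Nlgn2 and Nlgn3 higher and Lrrtm4 lower. The count of the 9 at an unadjusted p under 0.05 also moved with single libraries. It was, for trained against CSDS mice, 1 without trained replicate 3 and 5 without CSDS replicate 4 or control replicate 2. Over all genes the counts in these fits moved too, with 1700 of 16874, 3604 of 16879 and 2987 of 16833. The trained against control count was 1 without control replicate 1, 3, 4 or 5, CSDS replicate 5 or trained replicate 1, 2 or 3, and at most 3. Over all genes it ran from 1351 of 16874 without trained replicate 3 to 3522 of 16856 without trained replicate 4. The CSDS against control count was 1 without CSDS replicate 4, where 769 of 16879 genes passed, and 0 otherwise. Called genes moved as well: edgeR called 625 genes in trained against CSDS mice without trained replicate 4 and 43 without CSDS replicate 5, and 13 genes in trained against control mice without trained replicate 4, yet none of the 9 was called with any library left out. No gene of the 9 had groups free of overlap in any comparison, against 0.364% of all genes higher and 0.526% lower without overlap in trained against CSDS mice, 0.460% and 0.102% in trained against control mice, and 0.155% and 0.0836% in CSDS against control mice. The median log2 fold change of the 9 genes was 0.08 in trained against CSDS mice, 0.09 in trained against control mice and 0.10 in CSDS against control mice, beside 0.02, 0.01 and 0.00 over all genes.

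Nrxn2 encodes a presynaptic neurexin and showed the widest span of levels in CSDS mice. Its lowest, median and highest levels were 274, 297 and 450.5 CPM in trained mice, 283, 499 and 569 CPM in CSDS mice, and 282, 360.4 and 493 CPM in controls. Trained mice were low except for replicate 4, whose 450.5 CPM lay above the 274 to 307 of the other 5, while CSDS mice fell into 4 high and 2 low mice, and all groups overlapped. In trained against CSDS mice the log2 fold change was -0.49 ± 0.18 (SE; edgeR, unadjusted p = 0.014, adjusted p = 0.24). It was -0.24 ± 0.18 (adjusted p = 0.63) in trained against control mice and 0.25 ± 0.18 (adjusted p = 0.99) in CSDS against control mice. Without trained replicate 4 the trained against control value was -0.39 (edgeR, unadjusted p = 0.038), and with the GC correction -0.01. The CSDS against control value was 0.50 under voom (unadjusted p = 0.0018, adjusted p = 0.16), 0.10 with the GC correction and 0.02 without the 5 libraries high in neocortical or thalamic markers, a setting chosen after seeing the data.

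Nrxn3 encodes a second presynaptic neurexin of medium GC content and was the member whose difference between trained and control mice had the smallest p. Trained mice had 161, 172 and 199 CPM as lowest, median and highest, CSDS mice 137, 157 and 172 CPM, and controls 138, 141 and 173 CPM. All 6 trained mice lay above the control median, and 5 of the 6 controls lay below every trained mouse, the exception being control replicate 6. CSDS mice lay between and overlapped both groups. In trained against control mice the log2 fold change was 0.27 ± 0.08 (edgeR, unadjusted p = 0.0028, adjusted p = 0.23), which ranked 204 among the 16738 genes. Leaving out each library in turn kept it between 0.22 and 0.33, with an unadjusted edgeR p of 0.0004 to 0.014. In trained against CSDS mice it was 0.17 ± 0.08 (edgeR, unadjusted p = 0.045, adjusted p = 0.31), and in CSDS against control mice 0.10 ± 0.08 (adjusted p = 0.99). Without the 5 libraries high in neocortical or thalamic markers the trained against control difference was 0.19 (edgeR, unadjusted p = 0.095).

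Nlgn1, the neuroligin of excitatory synapses, had 47.9, 60.5 and 85.1 CPM as lowest, median and highest in trained mice, 44.0, 53.0 and 66.4 CPM in CSDS mice, and 46.7, 52.3 and 63.2 CPM in controls. Trained replicates 1 and 3 exceeded every mouse of the other groups, and the rest of the trained group lay among them. Its log2 fold change was 0.26 ± 0.13 in trained against CSDS mice (edgeR, unadjusted p = 0.062, adjusted p = 0.34) and 0.28 ± 0.13 in trained against control mice (edgeR, unadjusted p = 0.042, adjusted p = 0.43). Without trained replicate 3 these were 0.16 and 0.18 (edgeR, unadjusted p = 0.20 and 0.15), and with the GC correction 0.01 and 0.05. In CSDS against control mice it was 0.02 ± 0.13, with a 95% interval of -0.24 to 0.29.

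Nlgn2, the neuroligin of inhibitory synapses, had 278, 333 and 429 CPM as lowest, median and highest in trained mice, 307, 419.9 and 481 CPM in CSDS mice, and 293, 338 and 417 CPM in controls. The CSDS mice split as they did for Nrxn2, with 4 high and 2 low, and the groups overlapped. The log2 fold change was -0.26 ± 0.13 in trained against CSDS mice (edgeR, unadjusted p = 0.057, adjusted p = 0.33), -0.06 ± 0.13 in trained against control mice and 0.21 ± 0.13 in CSDS against control mice (adjusted p = 0.99).

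Nlgn3, found at both kinds of synapse, had 148, 161 and 214 CPM in trained mice, 146, 174 and 194 CPM in CSDS mice, and 121, 155 and 194 CPM in controls, again as lowest, median and highest. The groups overlapped almost wholly. The log2 fold change was -0.03 (95% interval -0.27 to 0.20) in trained against CSDS mice, 0.09 (-0.15 to 0.33) in trained against control mice and 0.12 (-0.11 to 0.36) in CSDS against control mice.

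Lrrtm1, a postsynaptic binding partner of neurexins, had 72.4, 79.4 and 118 CPM as lowest, median and highest in trained mice, 83.2, 103 and 116 CPM in CSDS mice, and 38.6, 103 and 112 CPM in controls. Of the 6 trained mice, 5 lay below all CSDS mice, and trained replicate 4 lay above them. Control replicate 2, the library low in dentate and pyramidal cell markers, had the 38.6 CPM, while the other 5 controls had 105 ± 5.15 CPM (SD). The log2 fold change was -0.24 ± 0.19 in trained against CSDS mice (edgeR, adjusted p = 0.53) and -0.15 ± 0.19 in trained against control mice. The CSDS against control value was 0.10 ± 0.19, and -0.07 without control replicate 2. Without that library the trained against control value was -0.31 (edgeR, unadjusted p = 0.019).

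Lrrtm2, another neurexin-binding postsynaptic protein and the member with the lowest GC content, had 33.7, 43.3 and 75.2 CPM in trained mice, 31.1, 35.5 and 49.3 CPM in CSDS mice, and 29.3, 39.6 and 57.7 CPM in controls, as lowest, median and highest. Trained replicates 3 and 6, the trained libraries high in thalamic markers, held 75.2 and 58.2 CPM and lay above all other mice. The remaining trained mice lay within the range of the other groups. Trained replicates 3 and 6 also had the lowest GC slopes of all libraries, -0.44 and -0.23. Control replicates 1 and 3, also high in thalamic markers, had 45.5 and 38.2 CPM. The part of thalamic RNA or of the GC slope in these levels was not tested. The log2 fold change was 0.38 ± 0.19 in trained against CSDS mice (edgeR, unadjusted p = 0.054, adjusted p = 0.33), 0.22 ± 0.19 in trained against control mice and -0.16 ± 0.19 in CSDS against control mice. Without the 5 libraries high in neocortical or thalamic markers the trained against CSDS value was 0.08 (edgeR, unadjusted p = 0.55).

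Lrrtm3, the member with the fewest counts, had 13.1, 15.0 and 33.7 CPM in trained mice, 16.6, 17.7 and 21.5 CPM in CSDS mice, and 13.6, 16.7 and 46.5 CPM in controls, as lowest, median and highest. Its high values sat in 3 libraries already set apart by the marker lists: 46.5 CPM in control replicate 2, high in neocortical markers, and 33.7 and 23.97 CPM in trained replicates 3 and 6, high in thalamic markers. Control replicates 1 and 3, also high in thalamic markers, had 16.8 and 17.2 CPM. The part that RNA of those regions had in the Lrrtm3 values was not tested. The log2 fold change was 0.08 ± 0.28 in trained against CSDS mice, -0.14 ± 0.28 in trained against control mice and -0.21 ± 0.28 in CSDS against control mice. Of the 6 trained mice, 4, at 13.1 to 15.2 CPM, lay below every CSDS mouse, while replicates 3 and 6 lay above every one. Leaving out the 5 libraries high in neocortical or thalamic markers, a setting chosen after seeing the data, removes these 2 and control replicate 2. The trained against CSDS value was then -0.34 (edgeR, unadjusted p = 0.00357, adjusted p = 0.40). In that fit 1845 of 17121 genes passed the unadjusted p. Without control replicate 2 alone the CSDS against control value was 0.19 and the trained against control value 0.26, both turned in sign.

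Lrrtm4, a member that also binds heparan sulfate proteoglycans, had 32.1, 44.4 and 50.8 CPM as lowest, median and highest in trained mice, 33.2, 36.9 and 40.4 CPM in CSDS mice, and 36.3, 41.0 and 43.3 CPM in controls. Of the 6 trained mice, 5 lay above every CSDS mouse, and replicate 6, the one highest in thalamic markers, lay below them all. Trained replicate 3, also high in thalamic markers, had the highest level of its group, 50.8 CPM. Control replicates 1 and 3, high in these markers too, had 42.2 and 42.0 CPM. The part of thalamic RNA in the Lrrtm4 values was not tested. The log2 fold change was 0.25 ± 0.10 in trained against CSDS mice (edgeR, unadjusted p = 0.021, adjusted p = 0.26), 0.12 ± 0.10 in trained against control mice and -0.12 ± 0.10 in CSDS against control mice. It was 0.29 in trained against CSDS mice without the 5 libraries named above, the setting chosen after seeing the data (edgeR, unadjusted p = 0.0048).

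**Figure D2:**
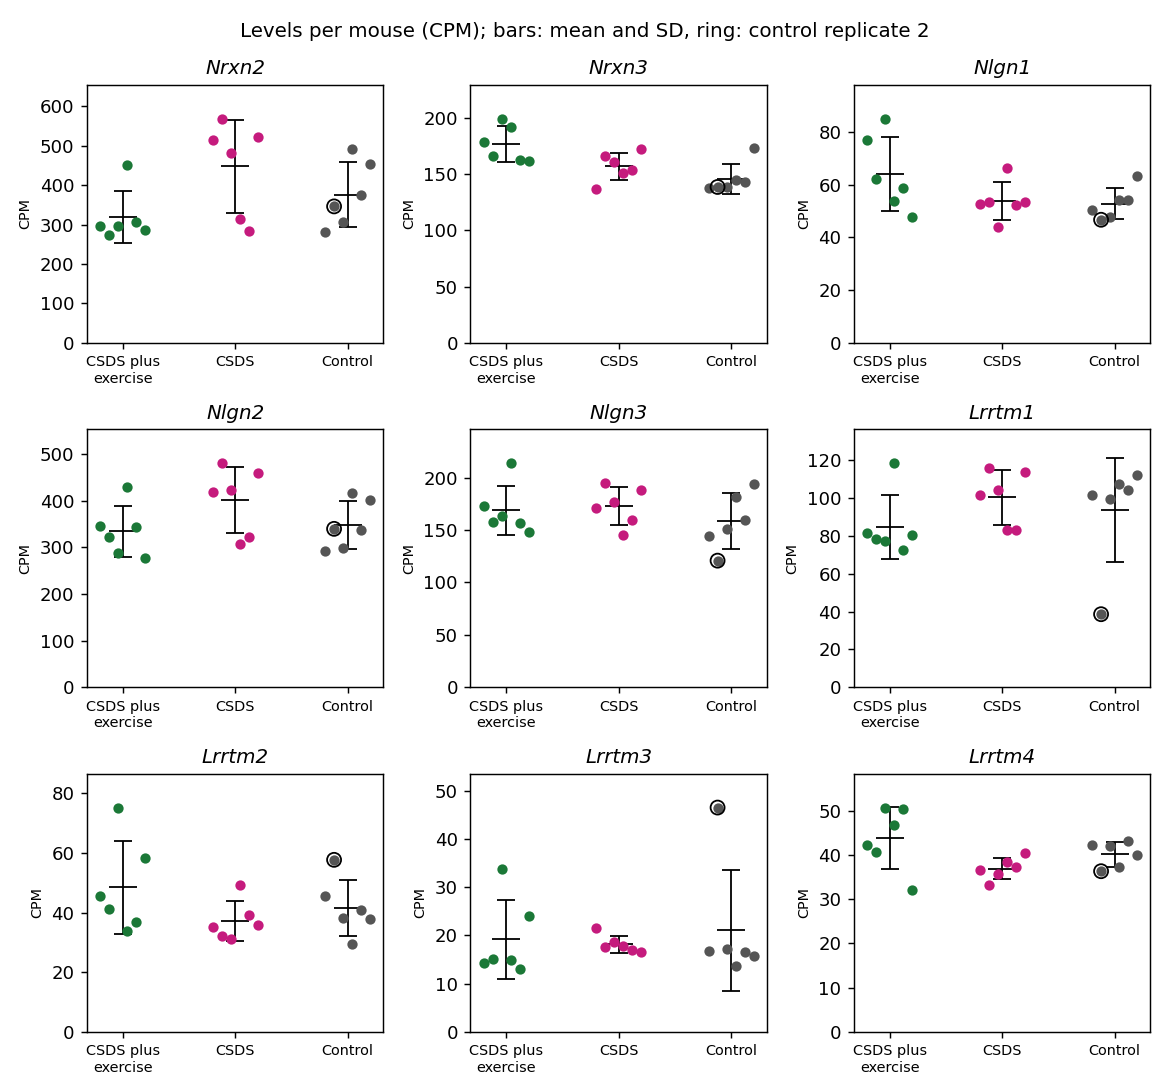
Level of each gene in CPM (vertical axis, from 0) in every mouse, in trained defeated, defeated and control mice, with lines for the mean and SD of 6 mice and a ring on control replicate 2. The ringed library has the lowest Lrrtm1 (38.6 CPM) and the highest Lrrtm3 (46.5 CPM), and trained replicate 4 has the highest Nrxn2 of its group (450.5 CPM).

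Placed in order of transcript GC content, the differences between trained and CSDS mice ran from higher to lower. The GC-poor genes Lrrtm2, Nlgn1 and Lrrtm4 had log2 fold changes of 0.38, 0.26 and 0.25, and the GC-rich genes Lrrtm1, Nlgn2 and Nrxn2 had -0.24, -0.26 and -0.49. Over all tested genes the same order held, with 73.3% of genes above the median GC content of 50.5% lower in trained mice and 20.03% of those at or below it. After each library's expression was corrected for its trend on GC content, the log2 fold changes of the 3 GC-poor genes were 0.10, 0.01 and 0.09 and those of the 3 GC-rich genes -0.09, 0.03 and -0.11. Such a correction removes any difference that follows GC content, whatever its source. Nrxn3 then had 0.17 in trained against CSDS mice (edgeR, unadjusted p = 0.035) and 0.27 in trained against control mice (edgeR, unadjusted p = 0.0018, adjusted p = 0.35). Its 51.1% GC lies near the median, where the correction changes little, so the correction could hardly have moved it. Nlgn3, at 50.8% GC, likewise had -0.03 before and -0.04 after it in trained against CSDS mice. With all 18 libraries Nrxn3 was the only one of the 9 that passed the unadjusted threshold after the correction, beside 5.96% of all genes in trained against CSDS mice and 7.44% in trained against control mice. In CSDS against control mice 4.13% of all genes passed and none of the 9. In that fit 1 gene was called in trained against CSDS mice (0.00597%), the predicted gene Gm37421, named after its value was seen. With control replicate 2 left out of the corrected fit, Lrrtm1 passed as well in trained against control mice, at -0.20 (edgeR, unadjusted p = 0.024).

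**Figure D3:**
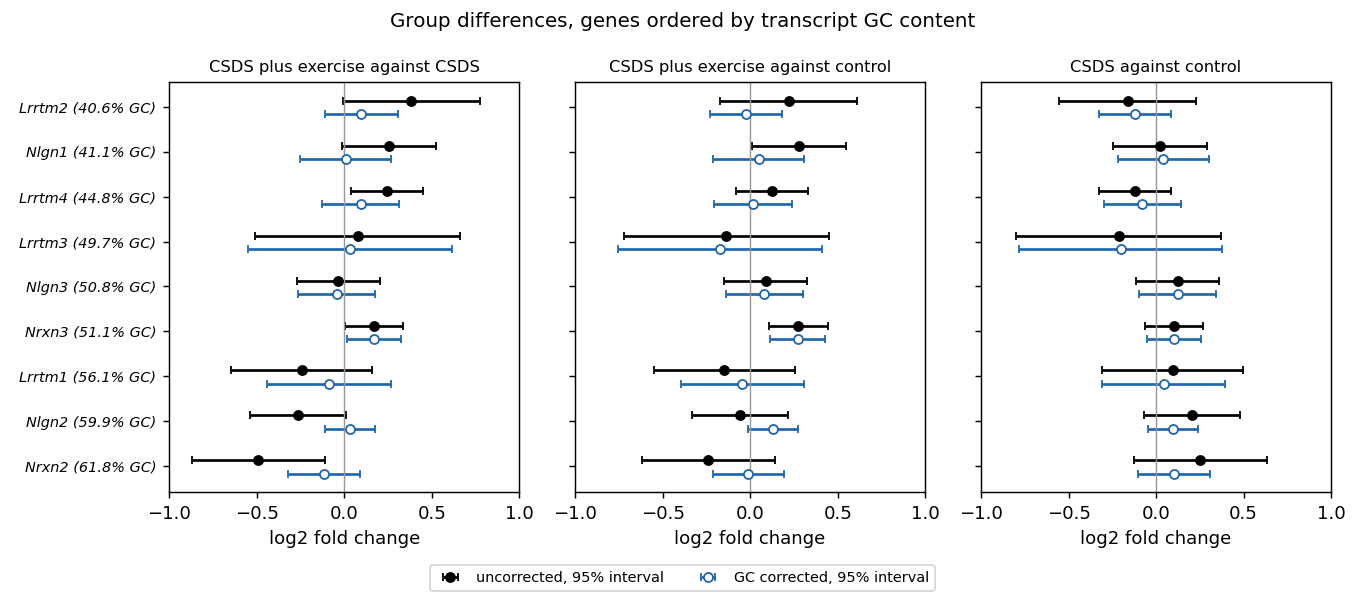
Log2 fold change (horizontal axis) with its 95% interval for the 9 genes, ordered by transcript GC content from low to high, before (filled) and after (open) the GC correction, in trained against CSDS, trained against control and CSDS against control mice. The order from 0.38 in Lrrtm2 to -0.49 in Nrxn2 in the left panel narrows to 0.10 and -0.11 after the correction. Nrxn3, near the median GC content, where the correction changes little, has 0.17 before and after.

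The levels of single mice followed the GC slope of their library as well. Over the 18 libraries, 9 relations were computed, with 100000 permutations each and Benjamini-Hochberg adjustment over the 9. The slope was fitted from the levels of other genes on GC content, so a GC-rich or GC-poor gene is expected to follow it. Other genes of like GC content were not put through this test, so it cannot set the 9 apart from them. The permutations mixed the groups, whose median slopes were -0.19 in trained, 0.19 in CSDS and 0.02 in control mice. Nrxn2 had Pearson's r = 0.87 (permutation p = 2e-05, adjusted p = 6e-05) and Spearman's rho = 0.81 (permutation p = 8e-05, adjusted p = 0.00024). For Nlgn2, r was 0.86 (permutation p = 1e-05, the smallest these permutations can give, adjusted p = 6e-05) and rho 0.78 (permutation p = 0.00012, adjusted p = 0.00027). Lrrtm2 ran the other way, with r = -0.89 (permutation p = 2e-05, adjusted p = 6e-05) and rho = -0.91 (permutation p = 1e-05, adjusted p = 9e-05). Without the 2 libraries farthest from the median slope, trained replicate 3 and control replicate 4, r was 0.92 for Nrxn2, 0.86 for Nlgn2 and -0.81 for Lrrtm2. Within the trained, CSDS and control mice taken alone, r was 0.83, 0.93 and 0.82 for Nrxn2, 0.90, 0.95 and 0.78 for Nlgn2, and -0.87, -0.95 and -0.92 for Lrrtm2. The 4 CSDS libraries with a positive slope were the 4 with high Nrxn2 and Nlgn2, and the 2 with a negative slope were the 2 with low levels.

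Lrrtm1 and Nlgn3 had lower Pearson coefficients, with r = 0.60 (permutation p = 0.0071, adjusted p = 0.016) and rho = 0.82 (permutation p = 4e-05, adjusted p = 0.00018) for Lrrtm1, and r = 0.59 (permutation p = 0.0094, adjusted p = 0.017) and rho = 0.63 (permutation p = 0.006, adjusted p = 0.011) for Nlgn3. Without the same 2 libraries r was 0.61 for Lrrtm1 and 0.68 for Nlgn3. Without control replicate 2, the library with the low Lrrtm1, r was 0.85 for Lrrtm1. For Nlgn1, r was -0.56 (permutation p = 0.017, adjusted p = 0.025) and rho -0.36 (permutation p = 0.14, adjusted p = 0.21), and r was -0.37 without the 2 libraries. Within trained, CSDS and control mice taken alone, r for Nlgn1 was -0.57, -0.71 and 0.50, so the direction was not the same in every group. Lrrtm3 and Lrrtm4 had r = -0.37 each (adjusted permutation p = 0.15 each) with rho of -0.16 and -0.34 (adjusted permutation p = 0.52 and 0.21). Nrxn3 had r = -0.23 (permutation p = 0.36, adjusted p = 0.36) and rho = -0.22 (permutation p = 0.37, adjusted p = 0.42), and r = 0.14 without the 2 libraries. The share of counts from mitochondrially encoded genes moved with the slope too. It was 1.71% to 3.07% in the 8 libraries with a positive slope and 3.21% to 5.10% in the 10 with a negative slope, which hold 5 of the 6 trained mice, 2 of the 6 CSDS mice and 3 of the 6 controls. Its part in the relations and in the group differences was not tested.

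**Figure D4:**
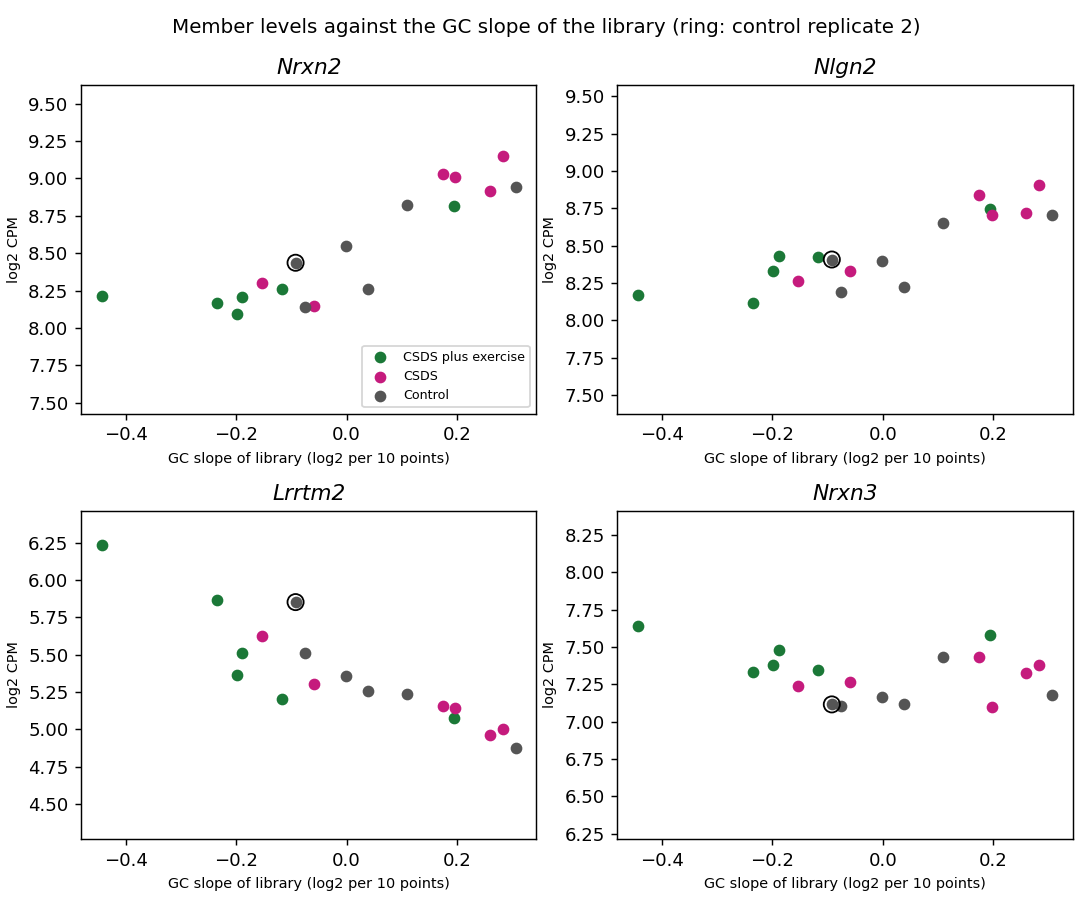
Level in log2 CPM (vertical axis) of Nrxn2, Nlgn2, Lrrtm2 and Nrxn3 in each of 18 libraries against the library's GC slope in log2 per 10 percentage points (horizontal axis), coloured by group, with a ring on control replicate 2. Nrxn2 and Nlgn2 climb with the slope (r = 0.87 and 0.86), Lrrtm2 descends (r = -0.89), and Nrxn3 shows no clear trend (r = -0.23).

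For each member the genes with the most similar pattern were taken over the 17 libraries other than control replicate 2, by the root mean square difference of centred log2 CPM. Nearest to Nrxn2 was Ttyh3, with a root mean square difference of 0.05 against an SD of 0.37 for Nrxn2 itself, followed by Cbarp and Dtx1. Their transcripts held 61.4%, 61.9% and 59.7% GC, close to the 61.8% of Nrxn2. Nlgn2 had Adgrl1 (0.07, own SD 0.25), Pde2a and Clstn1. Adgrl1 and Clstn1 themselves encode synaptic adhesion proteins. Nlgn3 had Snx19 (0.05, own SD 0.16), Drosha and Sf1, and Lrrtm1 had Wdr24 (0.08, own SD 0.23), Atxn7l3 and Grk6. With control replicate 2 included, the differences from Lrrtm1 were 0.30, 0.44 and 0.28, larger than its own SD over the 17 libraries, and that of Clstn1 from Nlgn2 was 0.18 in place of 0.07.

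Among the GC-poor genes, Lrrtm2 had Trove2 (0.08, own SD 0.33), Fxr1 and Zfp120, with GC contents of 39.5%, 42.5% and 38.1%. Nlgn1 had Mmp16 (0.10, own SD 0.24) and Fam49a, and Lrrtm4 had Arhgap20 (0.10, own SD 0.18), Inip and Ssx2ip. Nrxn3 had Akap6 (0.06, own SD 0.16) and Ash1l. Both were poorer in GC, at 46.4% and 44.4%, than Nrxn3 at 51.1%. Lrrtm3 had the least close partners, with Car10 at 0.16 (own SD 0.32), and also Srpk2.

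The wider adhesion pathway was taken from 6 lists of 88 genes, all of which were tested, and none of these genes was called by edgeR or DESeq2 in any comparison with all 18 libraries. Without trained replicate 4 edgeR called 1 of the 88 higher (Mdga2) and 6 lower in trained against CSDS mice, where it called 625 genes in all. Voom called 18 of the 88 higher and 32 lower in trained against CSDS mice, beside 33.3% of all genes. It called 1 higher (Cadm2) in trained against control mice, beside 1.09% of all genes, and 0 in CSDS against control mice. The counts of list members below are edgeR's at an unadjusted p under 0.05, beside 8.10% of all genes higher and 7.46% lower in trained against CSDS mice and 5.96% in either direction after the GC correction. Of 8 genes for other adhesion partners and hubs of the synapse, 3 were lower at an unadjusted p under 0.05 in trained against CSDS mice and 0 higher, with a median log2 fold change of -0.21. They were Igsf21 (23.4 ± 2.91 CPM in trained and 31.7 ± 8.26 CPM in CSDS mice, SD, n = 6 each) and the receptor phosphatases Ptprf and Ptprs, with log2 fold changes of -0.44, -0.45 and -0.45. After the GC correction these were -0.02, -0.20 and -0.14, and none of the list passed. Of 12 genes for secreted proteins, most of them Cbln, C1ql and Nxph genes, C1ql1 and Nxph3 were lower at the unadjusted p (-0.50 and -0.46, and -0.01 and -0.12 after the correction). After the correction 2 others passed, both higher: Cbln1 at 1.21 (1.08 before it) and Hapln4 at 0.41 (-0.09 before it). Hapln4, at 67.2% GC, thus turned in sign with the correction.

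The cerebellin Cbln1, which bridges neurexins to glutamate delta receptors, had 14.0 ± 13.6 CPM in trained mice, 6.62 ± 4.08 CPM in CSDS mice and 3.91 ± 2.56 CPM in controls (SD, n = 6 each). Its log2 fold change was 1.83 ± 0.54 in trained against control mice (edgeR, unadjusted p = 0.0029, adjusted p = 0.23), and 1.93 after the GC correction. The highest value, 40.5 CPM, was that of trained replicate 6, high in thalamic markers. Its relative Cbln2 had 7.06 ± 0.91 CPM in CSDS mice and 17.7 ± 20.6 CPM in controls, and passed the unadjusted p there (-1.33; edgeR, unadjusted p = 0.046, adjusted p = 0.99). Its high values were 36.3 CPM in trained replicate 6 and 56.8 and 24.9 CPM in control replicates 2 and 3, libraries high in neocortical or thalamic markers. Trained replicate 3 and control replicate 1, also high in thalamic markers, had 10.6 and 7.56 CPM of Cbln2 and 11.2 and 2.26 CPM of Cbln1. The part of those regions was not tested.

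Of 37 other postsynaptic organisers, 5 were higher and 5 lower at the unadjusted p in trained against CSDS mice, and 3 passed after the GC correction. Cadm2, a synaptic cell adhesion gene, had 200.1 ± 43.3 CPM in trained and 137 ± 18.4 CPM in CSDS mice (SD, n = 6 each), a log2 fold change of 0.54 ± 0.15 (edgeR, unadjusted p = 0.0019, adjusted p = 0.20) and 0.42 after the correction. Lrfn4 had -0.58 and -0.10 after it, Lrrc4b -0.50 and -0.08, and Il1rapl1 0.66 and 0.37. In trained against control mice 5 of the 37 were higher and 1 lower, beside 6.80% and 4.39% of all genes. Grik2, Cadm2, Mdga2 and Ntrk3, with 0.36, 0.46, 0.37 and 0.36, had the smallest p. After the correction these values were 0.21, 0.37, 0.23 and 0.34. Of 25 scaffolds that bind neurexin or neuroligin tails, 3 were higher and 3 lower in trained against CSDS mice, and none passed after the correction. Cask, which binds neurexin tails, had 0.23 and 0.11 after it, and the postsynaptic scaffold Shank3 had -0.58 and -0.23.

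Of the 3 Khdrbs genes, whose proteins regulate alternative splicing of neurexins, Khdrbs2 was higher in trained than in CSDS mice at the unadjusted p (0.36, and 0.15 after the correction), and Khdrbs1 had 0.04 (-0.09 after it). Khdrbs3 had -0.19, and -0.29 after the correction, where it was the list's only gene past the unadjusted p. The catenin hosts of the Lrrtm genes did not pass in any comparison. In trained against CSDS mice Ctnna1 had -0.06, beside 0.38 for Lrrtm2 inside it. Ctnna2 had 0.04, beside -0.24 for Lrrtm1, and Ctnna3 had 0.37 at 1.19 ± 0.20 CPM in trained and 0.92 ± 0.36 CPM in CSDS mice (SD, n = 6 each).

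Split at the median GC content of all genes, 41 of the 45 pathway genes above it were lower in trained than in CSDS mice, and 37 of the 43 at or below it were higher. Of all genes, 73.3% of those above it and 20.03% of those at or below it were lower. After the correction 34 of the 45 and 20 of the 43 were lower, beside 49.6% and 47.6% of all genes on each side. In CSDS against control mice the medians of the 5 lists other than the catenins lay between 0.06 and 0.16. There 1 gene, Cbln2, was past the unadjusted p, beside 3.51% of all genes.

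**Figure D5:**
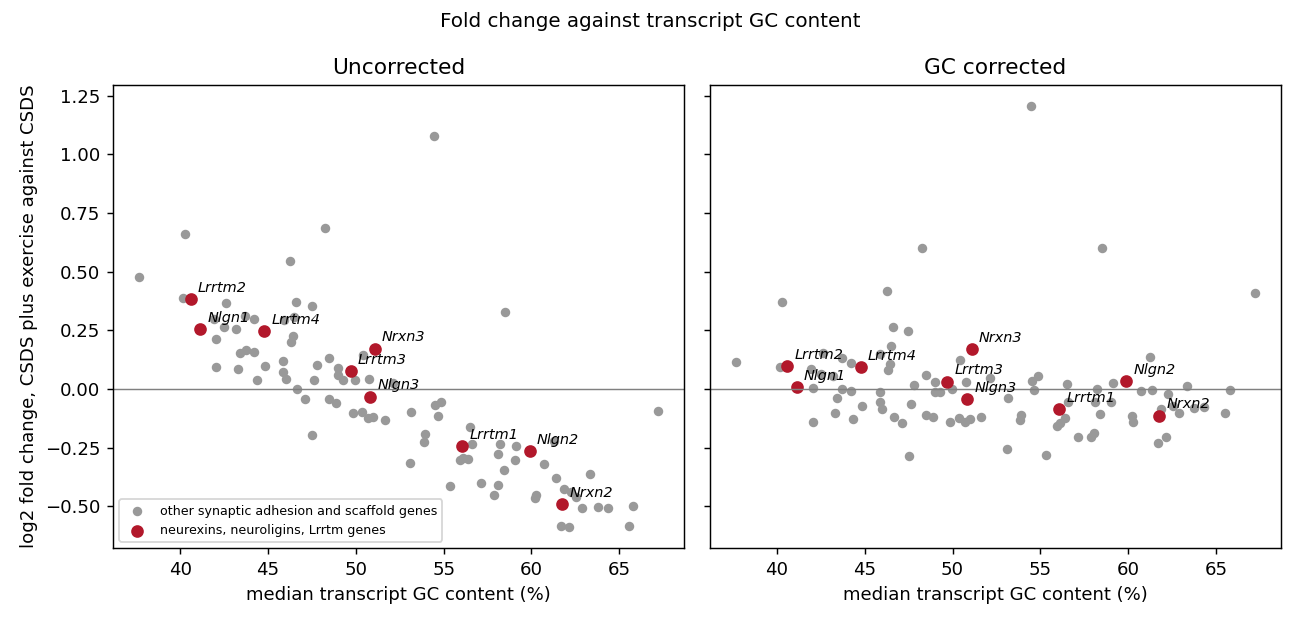
Log2 fold change in trained against CSDS mice (vertical axis) against median transcript GC content in percent (horizontal axis) for the 9 genes (red) and the 88 other adhesion and scaffold genes (grey), before (left) and after (right) the GC correction. On the left 41 of the 45 pathway genes above 50.5% GC are below 0, beside 73.3% of all genes there. On the right 34 are, beside 49.6% of all genes. Nrxn3, at 51.1% GC, where the correction changes little, has 0.17 in both.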

How the data were processed

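RNA from 18 hippocampi, 6 mice per group, was measured as poly(A)-enriched stranded libraries, per the labels' protocols. The authors deposited expected counts (estimated counts per gene, not normalized, of which 22.7% of nonzero values were not whole), and these were rounded before testing. The submitters' processing notes name fastp, HISAT2, RSEM and GRCm38 (mm10), with no version, annotation or strand setting given in the sources used. Reads that fit several genes are shared out by RSEM, which leaves overlapping genes and near-identical copies uncertain.

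Genes were filtered with filterByExpr (minimum count 10, total 15), scaled by TMM and tested with edgeR 4.0.16 in R 4.3.3 (quasi-likelihood F test, all 18 libraries, 1 term per group, two-sided, Benjamini-Hochberg adjustment over 16738 genes), with log2 CPM at a prior count of 2. The labels call the mice independent replicates. GC content was corrected by smoothing the deviation of each library (lowess, span 0.3) on the median transcript GC content from GENCODE M21, available for 98.1% of tested genes, with the smooth as an offset. Per-kb levels used the union of exons. Alternatives were DESeq2 1.42.0, limma 3.58.1 voom with quality weights, RLE or library size scaling, a replicate block, a fit to just the groups compared, filters of none or of 1 CPM in 6 libraries, and each library left out. Added after seeing the data was a setting of 13 libraries. The scripts were tested on simulated data. The 9 genes, the lists and the tests were chosen with earlier results of these data known. Named genes are the 9, the catenin hosts, up to 4 genes per list with the smallest p in each comparison and the 3 nearest genes per member, some of which are not reported here. Intervals are 95% confidence intervals of a log2 fold change between groups, built from the edgeR SE, which rests on the spread between mice. They do not give the range of single mice.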

Additional observations from a re-analysis of the deposited data

Results flagged for a closer look

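In 6 of the 27 combinations of member and group, 1 mouse lay farther from the nearest other mouse, relative to the whole range of its group, than Dixon's 95% limit for 6 samples. Chance alone flags about 1 group in 20, and the 9 genes were measured in the same libraries, so these are not independent. Trained replicate 4 stood out in 3 genes. Nrxn2 there was 450.5 CPM, against 274 to 307 CPM in the other trained mice, Lrrtm1 was 118 CPM, against 72.4 to 81.7 CPM, and Nlgn3 was 214 CPM, against 148 to 172 CPM. The same library had the only positive GC slope of the trained group, 0.19. It also had the highest dentate granule cell and the lowest interneuron marker mean of all libraries, 5.89 and 4.76 log2 CPM. After the GC correction it stayed highest of the group in all 3 genes. Nrxn2 was 8.65 log2 CPM there and 8.34 to 8.59 in the others. Lrrtm1 was 6.78 against 6.26 to 6.48, and Nlgn3 was 7.71 against 7.20 to 7.43. Control replicate 2 had the lowest Lrrtm1, 38.6 CPM against 99.4 to 112 CPM in the other controls, and the highest Lrrtm3, 46.5 CPM against 13.6 to 17.2 CPM. It is the library with low dentate granule cell and pyramidal cell markers and high neocortical markers. Control replicate 6 had 173 CPM of Nrxn3, against 138 to 145 CPM in the other controls, and without it the trained against control log2 fold change was 0.33 (edgeR, unadjusted p = 0.0004). The part of dissection or library composition in these values was not tested.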

How the results depend on the processing

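The 27 member values were recomputed under 30 settings, 810 values in all: 766 kept direction and side of the threshold, 6 passed it under voom and 38 turned in sign, 11 of them with 1 library left out. Every member value that turned had a log2 fold change of at most 0.28 in size in the initial fit. Members called were 6 in trained against CSDS mice under voom and 0 under all other settings. Genes called in trained against CSDS mice (0 initially) were 144 with DESeq2, 5567 with voom, 2 with no filter, 1 with only the groups compared, 1 with the GC correction and 0 to 625 with a library left out. In trained against control mice (3 initially) they were 111 with DESeq2, 183 with voom, 0 to 13 with a library left out, and 0 with no filter, 1 CPM in 6 libraries, only the groups compared, the GC correction (also with 17 libraries) or 13 libraries. In CSDS against control mice DESeq2 called 1 gene.

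Same-numbered mice did not deviate together: correlations were -0.31 to -0.09 between trained and CSDS, -0.26 to 0.25 between trained and control, and -0.47 to 0.09 between CSDS and control mice. So the numbers gave no sign of pairing, but such correlations cannot show whether same-numbered mice shared housing or handling. With the replicate block, genes called were 0 in every comparison, with or without the GC correction, and 1907, 1388 and 375 genes passed the unadjusted p in these comparisons, with 2, 1 and 0 members.

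Values that turned in sign are log2 fold changes, and the cause was not tested. In trained against CSDS mice, Nlgn2 was 0.0344 with the GC correction, 0.0371 with the replicate block added to it and 0.0343 with 17 libraries. Lrrtm3 was -0.23 under voom, -0.0127 with the GC correction and replicate block, -0.34 in 13 libraries and -0.16 to 0.16 with a library left out. Nlgn3 was 0.0234 in 13 libraries and -0.13 to 0.0038 with a library left out. In trained against control mice, Nlgn2 was 0.00759 under voom, 0.13, 0.14 (replicate block) and 0.15 (17 libraries) with the GC correction, and -0.17 to 0.00061 with a library left out. Lrrtm2 was -0.0227 with the GC correction and -0.0263 with the replicate block added. With the correction in 17 libraries Nlgn1 was -0.0127, Lrrtm3 0.23 and Lrrtm4 -0.0263. Nlgn3 was -0.0243 in 13 libraries and -0.0183 to 0.15 with a library left out, and Lrrtm3 -0.37 to 0.26. In CSDS against control mice, Nlgn1 was -0.0052 under voom, -0.0202 with the correction in 17 libraries, -0.0938 in 13 libraries and -0.0452 to 0.0824 with a library left out. Lrrtm1 was -0.11 in 17 corrected and in 13 libraries and -0.0654 to 0.15 with a library left out. Lrrtm3 was 0.14 under voom, 0.20 in 17 corrected and 0.25 in 13 libraries, and -0.31 to 0.19 with a library left out. Nlgn3 was -0.0477 and Lrrtm2 0.043 in 13 libraries.

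With 6 mice per group, the 95% interval of Lrrtm3 in trained against CSDS mice reached from -0.51 to 0.66, so its direction cannot be read at this number of mice.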
